A study of Saccharomyces cerevisiae with 6 samples.

Results

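The SEC genes of budding yeast take their name from screens for secretion mutants, and they act along the route from the endoplasmic reticulum (ER) to the cell surface. The genes described here are those of the deposited gene table whose name is SEC followed by a number, apart from SEC13, SEC59 and SEC53, which were not analysed here. The table lists 7125 genes, and 33 of them met this rule. The knockout group was a kap114 knockout strain of Saccharomyces cerevisiae, and its reference was a wild-type strain. Both had the S288C background and grew in the rich medium YPD to which 1.5 M NaCl had been added, and each was represented by 3 libraries of poly(A)-selected RNA. Kap114 is a karyopherin, an import receptor of the nucleus whose known cargoes include histones and the TATA-binding protein. The comparison asks how the transcriptomes of these genotypes differ in high salt; no culture without added salt was analysed here. The library names carry the word TAF1 in both groups, a word the sources do not explain.

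A secreted or membrane protein enters the ER through the Sec61 channel, brought there by the signal recognition particle or by the Sec62 and Sec63 proteins, and its signal peptide is removed by signal peptidase. COPII coats then form vesicles that leave the ER, COPI coats form vesicles that return to it from the Golgi, and SNARE proteins fuse each vesicle with its target. At the plasma membrane, the Rab GTPase Sec4 and the exocyst, a tethering complex, bring secretory vesicles to the growing bud.

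The libraries held 33638728 to 38540115 counts. KAP114 had 0 counts in each knockout library, against 257, 336 and 312 counts in wild-type libraries 1 to 3. The share of counts on the ribosomal RNA precursor RDN37 was 9.05% to 12.3% in the knockout and 3.69% to 4.54% in the wild type. Knockout library 1 lay nearer to the wild type than its group did: on a principal component of log2 CPM (counts scaled to library size) that holds 88.0% of the variance it was at -12.01, libraries 2 and 3 of the knockout at -53.0 and -42.4, and the wild-type libraries between 29.5 and 43.0. The part of RDN37 and of library make-up in the results below was not tested. The names carry S numbers 8 to 10 in the knockout and 1 to 3 in the wild type, so any order that these reflect cannot be told apart from genotype. Separate cultures are not stated in the labels; each p-value therefore reflects the spread among these libraries alone, and that spread may be technical. In bulk RNA, fewer cells of a kind and less RNA per cell cannot be told apart.

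More SEC genes were higher than lower in the knockout, and among the steps the SEC genes of ER translocation and of the COPI coat had the largest median rises. Of the 33 genes, all of which passed the filter on low counts, 19 rose, 3 fell and 11 were not called, at a threshold of 0.05 on the Benjamini-Hochberg adjusted p of edgeR (quasi-likelihood) over 6080 tested genes. The share called, 66.7%, lay near the 64.3% called among all tested genes; the share that rose was 57.6%, against 34.3% of all tested genes, and the share that fell was 9.09%, against 30.0%. A change of at least 2-fold was called for 8 SEC genes (24.2%), all of them higher in the knockout, against 24.8% of all tested genes. The median log2 fold change was 0.45 over the SEC genes, with an interquartile range from -0.02 to 0.92, and 0.01 over all tested genes. With scaling by library totals only, which moves the median of all tested genes to -0.13, 17 SEC genes rose and 6 fell. The groups did not overlap in CPM, scaled here with the TMM factors of edgeR, for 24 of the 33 genes, against 73.8% of all tested genes. All libraries of the knockout lay above the wild type for 19 genes, those that rose, against 37.9% of all tested genes. They lay below it for 5 genes, against 35.9% of all tested genes.

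The largest rises were those of SEC63, SEC11, SEC12, SEC28 and SEC14, and the largest fall was that of SEC9. Without knockout library 1 the counts were 21 higher and 6 lower, and without wild-type library 1 they were 18 higher and 1 lower. Summed over the 33 genes, the level was 2210.3 ± 27.3 TPM (a level scaled to transcript length and to the library) in the knockout and 2065 ± 56.1 TPM in the wild type (SD, n = 3 each). The SEC genes took 0.315%, 0.338% and 0.330% of counts in knockout libraries 1 to 3, against 0.328%, 0.329% and 0.320% in wild-type libraries 1 to 3. These shares overlapped between the genotypes, whereas the summed TPM did not, at 2179 to 2229 in the knockout libraries and 2003 to 2113 in the wild-type libraries. Counts on RDN37, a larger share in the knockout, are part of the totals behind both measures, and TPM is also scaled to transcript length. The part of either in this difference was not tested. Single genes moved by up to 4.12-fold.

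**Figure D1:**
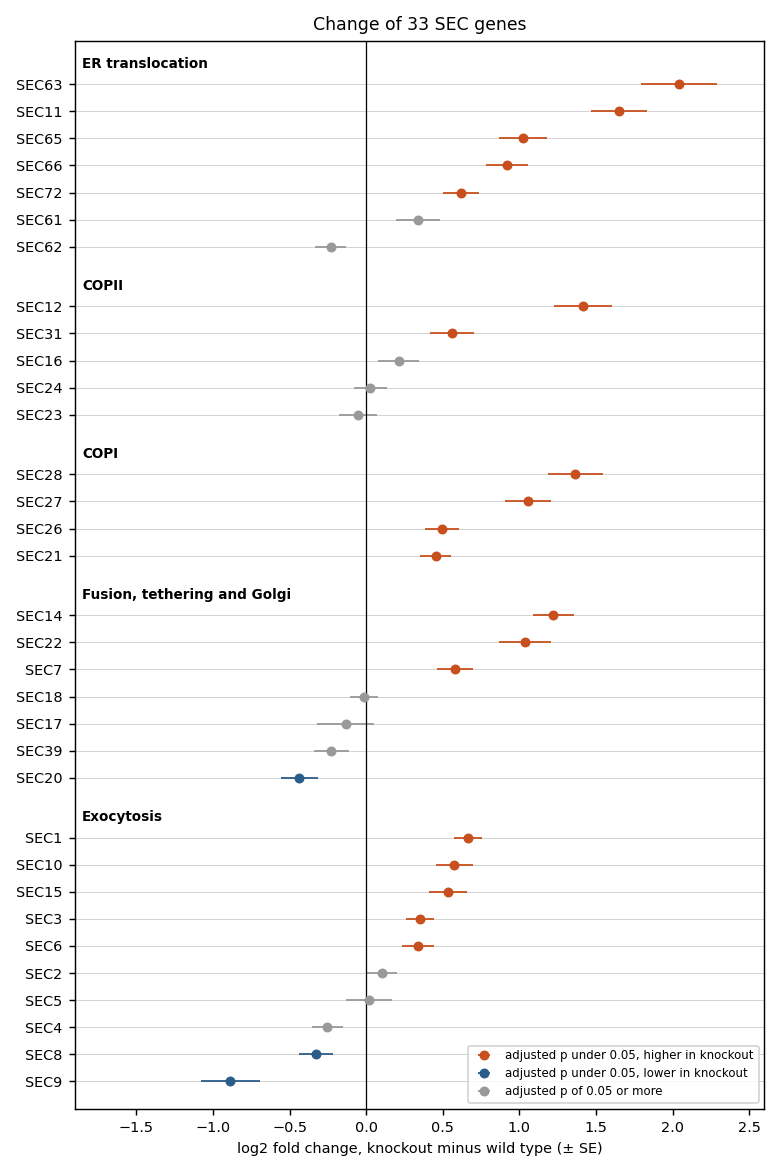
Log2 fold change of each of the 33 SEC genes, knockout minus wild type, with its SE from edgeR, grouped by step and ordered by size within a step. Orange and blue points passed an adjusted p of 0.05, 19 higher and 3 lower; grey points did not.

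The promoters of the genes with the largest change in the ER, coat and exocytosis steps are shown first, with those of SEC31 and SEC20 because they alone among the 33 hold a match to the unfolded protein response motif searched. Each is the stretch from 250 to 51 bases before the start codon, 200 bases read 5′ to 3′ on the gene's strand from the RefSeq genome of build R64, in which all 33 genes had the coordinates of the gene table. Capitals mark matches on either strand to TATAAA, the core of the TATA box that the TATA-binding protein binds, to CAGCGTG, a core of the element bound by the unfolded protein response factor Hac1, or to AGGGG, the stress response element of Msn2 and Msn4.
SEC63 promoter, chrXV:807074-807273, minus strand: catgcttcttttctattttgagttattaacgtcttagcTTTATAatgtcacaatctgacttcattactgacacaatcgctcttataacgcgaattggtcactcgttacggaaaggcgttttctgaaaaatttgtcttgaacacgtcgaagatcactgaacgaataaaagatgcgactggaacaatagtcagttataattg
SEC12 promoter, chrXIV:674740-674939, minus strand: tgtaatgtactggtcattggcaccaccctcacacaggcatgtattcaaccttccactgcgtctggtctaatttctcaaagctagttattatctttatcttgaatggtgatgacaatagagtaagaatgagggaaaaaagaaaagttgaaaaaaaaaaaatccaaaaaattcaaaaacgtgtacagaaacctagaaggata
SEC28 promoter, chrIX:216408-216607, plus strand: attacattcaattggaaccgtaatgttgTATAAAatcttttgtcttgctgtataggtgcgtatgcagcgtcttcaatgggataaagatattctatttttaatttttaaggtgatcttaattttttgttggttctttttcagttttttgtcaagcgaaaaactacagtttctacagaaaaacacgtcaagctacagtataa
SEC31 promoter, chrIV:106958-107157, plus strand: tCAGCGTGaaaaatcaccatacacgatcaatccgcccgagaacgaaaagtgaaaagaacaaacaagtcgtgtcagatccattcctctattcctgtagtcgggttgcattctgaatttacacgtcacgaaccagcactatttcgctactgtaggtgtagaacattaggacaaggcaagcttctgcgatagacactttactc
SEC9 promoter, chrVII:511053-511252, minus strand: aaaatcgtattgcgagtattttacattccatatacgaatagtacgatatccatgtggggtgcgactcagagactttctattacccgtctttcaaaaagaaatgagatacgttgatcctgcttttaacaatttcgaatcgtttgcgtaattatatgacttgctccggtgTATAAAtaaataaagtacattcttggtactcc
SEC20 promoter, chrIV:1447045-1447244, minus strand: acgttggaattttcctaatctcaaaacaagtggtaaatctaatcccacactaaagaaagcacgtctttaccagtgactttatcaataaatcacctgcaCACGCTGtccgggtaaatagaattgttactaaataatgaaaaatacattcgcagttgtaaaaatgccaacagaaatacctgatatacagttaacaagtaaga

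TATAAA or its complement TTTATA was present in 10 of the 33 SEC windows (30.3%), against 37.9% of 6001 windows of the same length before protein-coding genes. It was present in 5 of the 19 genes that rose, 2 of the 3 that fell, SEC9 and SEC8, and 3 of the 11 that were not called. The match in SEC9, the gene with the largest fall, begins 82 bases before the start codon, and those in SEC28 and SEC63 begin 222 and 212 bases before it. CAGCGTG or CACGCTG was present in 2 SEC windows (6.06%), against 0.800% of all windows; SEC31 rose and SEC20 fell. AGGGG or CCCCT was present in 0 SEC windows, against 15.6% of all windows. None of these motifs holds another of them. In 8 of the 33 windows some bases lie within another gene: 169 of the 200 bases for SEC11, 23 for SEC5, 21 for SEC8, 19 for SEC15, 17 for SEC12, 10 for SEC26, 3 for SEC63 and 1 for SEC6. These windows are included in the counts. These matches describe letters in a window and are not evidence that a factor binds there.

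In ER translocation 5 of 7 SEC genes rose and 0 fell, against 34.3% and 30.0% of all tested genes. Their median log2 fold change, 0.92, was the largest of the 5 steps among SEC genes. SEC63 (YOR254C, chromosome XV, 805032 to 807023, minus strand) encodes a J-domain membrane protein that brings the chaperone Kar2 to the channel. It had 25.7, 48.7 and 41.4 TPM in knockout libraries 1 to 3, against 8.57, 11.8 and 9.26 TPM in wild-type libraries 1 to 3. Every knockout library lay above every wild-type library, and the lowest knockout value was that of library 1. The rise was 4.12-fold (log2 2.04 ± 0.25, SE; edgeR adjusted p = 0.00114), the largest among the SEC genes. Its counts were 1827, 3440 and 3218 in the knockout libraries and 632, 941 and 663 in the wild-type libraries. By TPM, SEC63 ranked at place 31 of 33 in the wild type and at place 19 in the knockout.

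SEC11 (YIR022W, chromosome IX, 398733 to 399236, plus strand), the catalytic subunit of signal peptidase, had 78.4, 123.9 and 110.5 TPM in the knockout libraries, against 31.8, 38.46 and 34.6 TPM in the wild-type libraries. The groups did not overlap, and SEC11 rose 3.14-fold (adjusted p = 0.00113, edgeR). SEC65, a subunit of the signal recognition particle, rose 2.03-fold, with 74.7 ± 14.7 TPM in the knockout and 38.6 ± 1.94 TPM in the wild type (SD, n = 3 each). SEC66 and SEC72 encode the other subunits that join Sec62 and Sec63 in a complex for transport after translation. SEC66 had 79.1, 95.5 and 92.6 TPM in the knockout and 47.1, 58.2 and 43.3 TPM in the wild type, a rise of 1.89-fold. SEC72 rose 1.53-fold, with 49.7, 61.9 and 59.1 TPM in the knockout and 39.5, 38.3 and 39.3 TPM in the wild type.

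SEC62 had the highest level among the 7 SEC genes of this step and did not pass the test. It had 139, 141 and 138 TPM in the knockout libraries, against 179.7, 165 and 170.04 TPM in the wild-type libraries, so that the groups did not overlap in the downward direction, and its log2 fold change was -0.23 ± 0.10 (SE; edgeR adjusted p = 0.0765). It passed with total-count scaling, DESeq2 and limma on log2(TPM + 1), with adjusted p of 0.0105, 0.0183 and 0.0295. The ratio of SEC63 to SEC62 TPM was 0.185, 0.347 and 0.300 in knockout libraries 1 to 3, against 0.0477, 0.0715 and 0.0545 in wild-type libraries 1 to 3, and the ratio of SEC66 to SEC62 was 0.640 ± 0.0607 in the knockout and 0.290 ± 0.0549 in the wild type (SD, n = 3 each). These ratios were chosen after the values were seen, and no test was made of them. SEC61, the channel itself, had 74.3, 102.7 and 87.4 TPM in the knockout and 76.6, 69.1 and 74.0 TPM in the wild type. Its groups overlapped through knockout library 1, and it did not pass (log2 0.34 ± 0.14, SE; edgeR adjusted p = 0.0723), although it did without that library (0.00262).

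**Figure D2:**
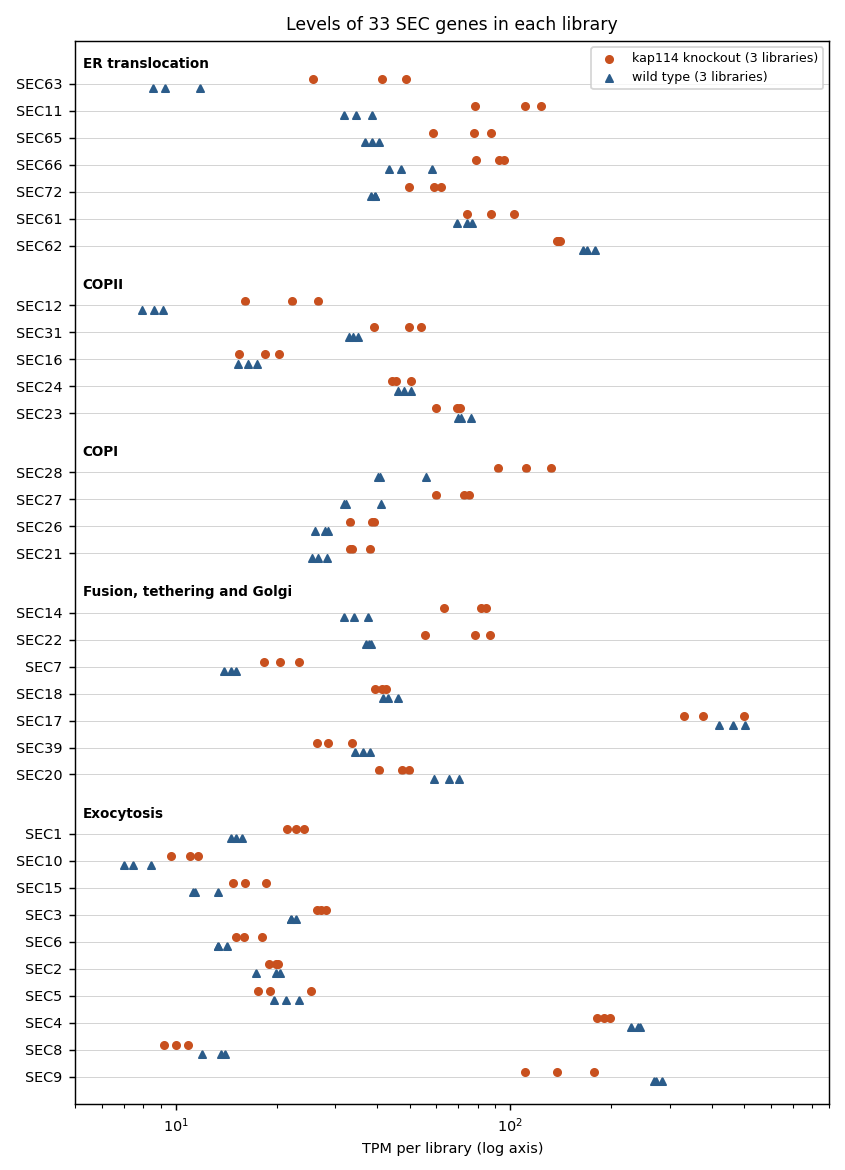
TPM of each SEC gene in each library on a log axis, with knockout libraries as circles above wild-type libraries as triangles, grouped by step. SEC63 and SEC12 are among the lowest in the wild type and further right in the knockout, whereas SEC17, SEC9 and SEC4, the most abundant, overlap or lie lower in the knockout.

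In the COPII step 2 of 5 SEC genes rose and 0 fell; the share that rose, 40.0%, was near the 34.3% of all tested genes. SEC12 (YNR026C, chromosome XIV, 673274 to 674689, minus strand), the exchange factor that loads the GTPase Sar1 and so starts coat assembly, had 16.1, 26.7 and 22.3 TPM in the knockout libraries, against 7.93, 9.13 and 8.59 TPM in the wild-type libraries. All knockout libraries were above all wild-type libraries, and the rise was 2.67-fold (log2 1.42 ± 0.19, SE; edgeR adjusted p = 0.00117). SEC31, for the outer coat, rose 1.47-fold, with 39.1, 54.1 and 49.8 TPM in the knockout and 33.9, 35.0 and 33.04 TPM in the wild type. The call of SEC31 ended without knockout library 3 and without wild-type library 3, at edgeR adjusted p of 0.0509 and 0.0548.

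The inner coat genes SEC23, which activates the GTPase of Sar1, and SEC24, which binds cargo, had overlapping groups. SEC23 averaged 66.5 ± 5.88 TPM in the knockout and 72.6 ± 3.49 TPM in the wild type, and SEC24 averaged 46.7 ± 3.26 TPM in the knockout and 48.2 ± 2.20 TPM in the wild type (SD, n = 3 each). Their log2 fold changes were -0.05 ± 0.12 and 0.03 ± 0.11 (SE), and their sign depended on the scaling. SEC16, the scaffold of ER exit sites and at 6588 bases the longest SEC gene, had 15.4, 20.3 and 18.5 TPM in the knockout and 16.4, 17.5 and 15.3 TPM in the wild type. It was not called (log2 0.21 ± 0.13, SE; edgeR adjusted p = 0.198), but passed without knockout library 1 (0.0113). The ratio of SEC12 to SEC23 TPM was 0.323 ± 0.0538 in the knockout and 0.118 ± 0.0135 in the wild type (SD, n = 3 each), a description chosen after the values were seen.

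All SEC genes of the COPI coat, 4 of 4, rose, against 34.3% of all tested genes. SEC28 (YIL076W, chromosome IX, 216658 to 217548, plus strand), the epsilon subunit of the coat, had 91.8, 111.1 and 133 TPM in the knockout libraries, against 40.9, 55.9 and 40.3 TPM in the wild-type libraries. It rose 2.58-fold (adjusted p = 0.00116, edgeR), and it was the only one of the 19 SEC genes that rose for which knockout library 3, and not library 2, was the highest. SEC27, for the beta-prime subunit, had 60.1, 75.3 and 72.6 TPM in the knockout and 32.2, 41.1 and 31.8 TPM in the wild type, a rise of 2.08-fold. SEC26 and SEC21, for the beta and gamma subunits, rose 1.41-fold and 1.37-fold. SEC26 averaged 37.0 ± 3.39 TPM in the knockout and 27.5 ± 1.24 TPM in the wild type, and SEC21 averaged 34.9 ± 2.61 TPM in the knockout and 26.8 ± 1.39 TPM in the wild type (SD, n = 3 each). Summed over these 4 genes, the level was 218, 264 and 278 TPM in knockout libraries 1 to 3, against 128, 154 and 124 TPM in wild-type libraries 1 to 3. All 4 calls held in each of the 17 alternatives run.

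Genes of vesicle fusion, tethering and the Golgi moved in both directions. Of 7 SEC genes, 3 rose (42.9%, against 34.3% of all tested genes), 1 fell (14.3%, against 30.0%) and 3 were not called. SEC14 (YMR079W, chromosome XIII, 424989 to 426059, plus strand), which exchanges phosphatidylinositol and phosphatidylcholine between membranes, had 63.2, 84.7 and 81.7 TPM in the knockout libraries, against 31.7, 37.6 and 34.2 TPM in the wild-type libraries, a rise of 2.33-fold (adjusted p = 0.00114, edgeR). SEC22, a SNARE of traffic between ER and Golgi, rose 2.05-fold. It had 55.6, 87.2 and 78.2 TPM in the knockout and 38.2, 37.8 and 37.1 TPM in the wild type, close values in the wild type and a low knockout library 1. SEC7, the exchange factor for Arf GTPases at the Golgi, rose 1.50-fold, with 20.7 ± 2.52 TPM in the knockout and 14.6 ± 0.590 TPM in the wild type (SD, n = 3 each).

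SEC20, another SNARE, which acts in the return to the ER, fell 1.35-fold, with 49.6, 40.4 and 47.3 TPM in the knockout and 70.4, 65.4 and 59.2 TPM in the wild type. Its groups did not overlap, but its call ended without wild-type library 1 (edgeR adjusted p = 0.0634, against 0.0155). SEC17, for the SNAP adaptor of SNARE disassembly, was the most abundant SEC gene in both genotypes, with 498, 331 and 377 TPM in the knockout and 463, 504 and 422 TPM in the wild type. Knockout library 1 lay within the wild-type range and the others below it; SEC17 was not called (log2 -0.13 ± 0.19, SE; adjusted p = 0.543), but passed without knockout library 1 (0.0489). SEC18, the ATPase that works with Sec17, had 41.1 ± 1.56 TPM in the knockout and 43.7 ± 2.33 TPM in the wild type (SD, n = 3 each; log2 -0.02 ± 0.09, SE), and its sign depended on the setting. SEC39, a subunit of the Dsl1 tethering complex at the ER, had 33.5, 26.4 and 28.5 TPM in the knockout and 36.4, 38.1 and 34.2 TPM in the wild type, and was not called (adjusted p = 0.111, edgeR). Its groups did not overlap in TPM but did in TMM-scaled CPM, so its overlap depended on the scaling. SEC39 passed without knockout library 1 (0.00919) and with total-count scaling (0.0184).

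The exocytosis genes changed in both directions. Of 10, 5 rose, against 34.3% of all tested genes, 2 fell, against 30.0%, and 3 were not called. A change of at least 2-fold was called for 0 of the 10, against 24.8% of all tested genes. SEC9 (YGR009C, chromosome VII, 509047 to 511002, minus strand), a SNARE of the plasma membrane, had 177, 110.5 and 138 TPM in the knockout libraries, against 285, 268 and 273 TPM in the wild-type libraries. The groups did not overlap, knockout library 1 was nearest to the wild type, and SEC9 fell 1.85-fold (log2 -0.89 ± 0.19, SE; edgeR adjusted p = 0.00640). SEC4, for the Rab GTPase of secretory vesicles, had 199, 191 and 181 TPM in the knockout and 243, 229.9 and 242 TPM in the wild type. All its knockout libraries lay below all wild-type libraries, yet it did not pass (log2 -0.25 ± 0.10, SE; edgeR adjusted p = 0.0586); it did with DESeq2 (0.00548), with RLE scaling (0.0382) and with total-count scaling (0.00915). SEC4 and SEC9 made up 72.3%, 67.3% and 69.2% of the summed TPM of the 10 genes in the knockout libraries, against 81.0%, 80.2% and 80.2% in the wild-type libraries. That sum was 476 ± 38.6 TPM in the knockout and 638 ± 15.7 TPM in the wild type (SD, n = 3 each).

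SEC1, whose protein binds the SNARE complex and promotes fusion, rose 1.58-fold, with 21.5, 24.1 and 22.8 TPM in the knockout and 15.1, 15.7 and 14.6 TPM in the wild type (edgeR adjusted p = 0.00126). SEC2, the exchange factor for Sec4, had 20.2, 19.0 and 19.9 TPM in the knockout and 19.99, 20.5 and 17.4 TPM in the wild type, with overlapping groups and no call (log2 0.10 ± 0.10, SE). Among the 6 SEC genes of the exocyst, 4 rose, against 34.3% of all tested genes: SEC10 (1.49-fold), SEC15 (1.45-fold), SEC3 (1.28-fold) and SEC6 (1.26-fold). SEC3, a subunit that marks sites on the plasma membrane, had 26.4, 28.2 and 27.1 TPM in the knockout and 22.1, 22.1 and 22.9 TPM in the wild type. SEC8 fell 1.26-fold, with 10.9, 9.23 and 10.0002 TPM in the knockout and 13.6, 12.0 and 14.0 TPM in the wild type, and SEC5 was not called, with 25.3, 17.5 and 19.1 TPM in the knockout and 21.4, 19.6 and 23.3 TPM in the wild type. The smaller calls were not stable: the call of SEC6 was lost when knockout library 2 or 3 or any 1 of the wild-type libraries was left out (edgeR adjusted p from 0.0562 to 0.0838), that of SEC8 without knockout library 2 or 3 or wild-type library 1 or 3 (0.0895 to 0.113), and that of SEC3 without wild-type library 2 (0.0533). With total-count scaling SEC3 and SEC6 were not called (0.0740 and 0.147), and with upper-quartile scaling SEC8 was not (0.0651).

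The 6 SEC genes of the exocyst lay low in level, with a median of 16.5 TPM in the knockout and 13.4 TPM in the wild type. SEC3 was the highest of them, at 27.2 TPM in the knockout and 22.4 TPM in the wild type. SEC10 had the lowest wild-type level of all SEC genes, 7.63 ± 0.729 TPM (SD, n = 3). In the knockout the lowest was SEC8, at 10.03 ± 0.817 TPM, within its spread of SEC10 at 10.8 ± 1.02 TPM (SD, n = 3 each). SEC genes spanned 40.1-fold in mean TPM in the knockout and 60.7-fold in the wild type. Of the 33, 19 lay above the median TPM of all tested genes in the knockout and 14 in the wild type. The 8 genes with the lowest wild-type TPM included 7 that rose, and the 8 with the highest included 1 that rose and 2 that fell. Of all tested genes, at any level, 34.3% rose and 30.0% fell, and genes of like level were not counted. The wild-type libraries used for this ranking also enter the change, so this is a description. The SD over libraries was larger in the knockout: its median over the genes was 11.7% of the mean, against 5.33% in the wild type.

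The knockout libraries differed among themselves in the same order for nearly all SEC genes that passed the test. This order was not particular to SEC genes. On the principal component over all tested genes, knockout library 1 lay at -12.01, nearest to the wild type, library 3 at -42.4 and library 2 at -53.0. Knockout library 1 showed the smallest rise for 19 of 19 genes that rose and the smallest fall for 3 of 3 that fell, and knockout library 2 showed the largest rise for 18 of 19. Set against the wild-type mean on the log2 scale, the median difference of the genes that rose was 0.57, 0.76 and 0.68 in knockout libraries 1 to 3. For the genes that fell it was -0.33, -0.60 and -0.38. The share of counts on RDN37 was 12.3%, 9.05% and 11.3% in these libraries, and its part in the order was not tested.

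**Figure D3:**
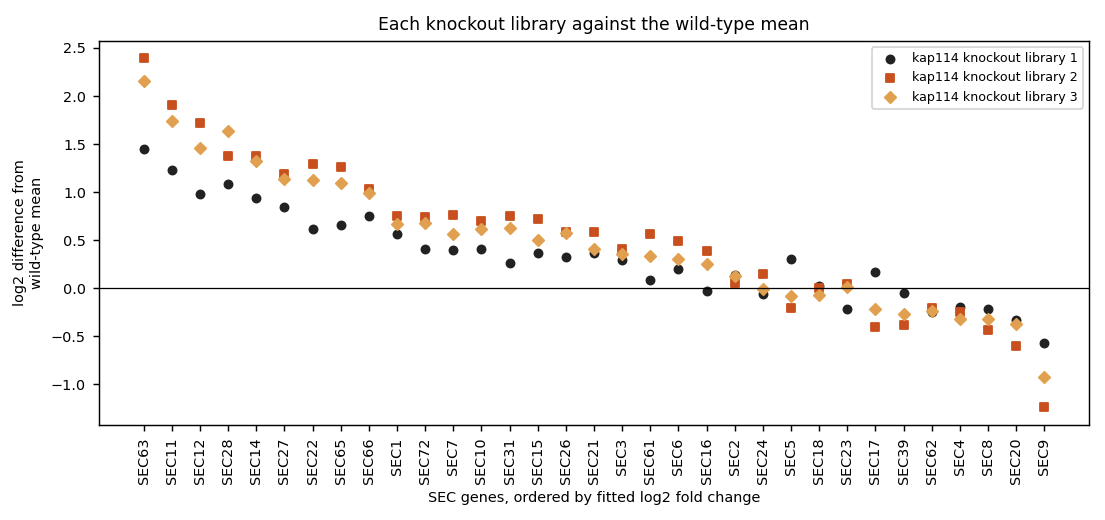
Log2 difference of each knockout library from the wild-type mean, in TMM-scaled CPM, for the 33 SEC genes ordered by fitted change. Knockout library 1 (black circles) lies nearest to 0 for the genes at either end, and all 3 libraries have the same sign for each gene that passed the test.

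The 33 genes are spread over 11 chromosomes, 13 on the plus strand and 20 on the minus strand, and close neighbours could differ in change. On chromosome IV, SEC1 (782041 to 784215), SEC5 (786306 to 789221) and SEC7 (796193 to 802222) lie on the minus strand close together; SEC1 and SEC7 rose 1.58-fold and 1.50-fold, and SEC5 had a log2 fold change of 0.02 ± 0.15 (SE). For 2 genes, SEC6 and SEC61, another listed feature overlaps on the opposite strand, and its counts came to 0.0493% and 0.0964% of those of the SEC gene. The authors' deposited table of 2212 selected genes holds 10 of the 33 SEC genes (30.3%, against 31.0% of all listed genes), 9 higher and 1 lower. All 10 were also called here in the same direction, but both sets of values come from the same libraries, so this is not a separate test. SEC63 and SEC12 are not in that table; the sources do not state the rule behind its selection.

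Other genes of the same steps, on a list of 113 names of which 109 were found and tested, were counted beside the SEC genes. Of the 109, 59 rose (54.1%) and 22 fell (20.2%), with a median log2 fold change of 0.42, against 34.3% and 30.0% of all tested genes and their median of 0.01. The number of partners that fell was 13 without knockout library 3 or without wild-type library 1 and 14 without wild-type library 3. The number of all tested genes lower in the knockout, 1826, was 1090 without knockout library 3 and 1211 without wild-type library 1. By step, the median of the partners was 0.71 for ER translocation, 0.56 for COPII, 0.98 for COPI, 0.60 for fusion, tethering and Golgi and -0.28 for exocytosis. In ER translocation 13 of 20 rose and 3 fell. SRP68, a subunit of the signal recognition particle, rose 3.09-fold, with 42.6 ± 6.53 TPM in the knockout and 14.5 ± 2.24 TPM in the wild type. SPC3, a subunit of signal peptidase beside Sec11, rose 2.80-fold, with 38.3 ± 3.69 TPM in the knockout and 14.4 ± 0.787 TPM in the wild type. SRP54, the subunit that binds signal peptides, fell 1.31-fold, a call that ended without knockout library 2 or 3 or without any 1 wild-type library (edgeR adjusted p from 0.0879 to 0.136).

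Among partners of COPII and its cargo 14 of 20 rose and 2 fell, against 34.3% and 30.0% of all tested genes. ERP1 and ERP2, members of the p24 family that travel in ER vesicles, rose 2.71-fold and 2.92-fold, and EMP46, a lectin-like cargo receptor, fell 1.64-fold. Among COPI partners 6 of 11 rose and 1 fell, against the same shares of all tested genes. RET3, the zeta subunit of the coat, rose 2.94-fold, with 66.7, 80.7 and 82.9 TPM in the knockout and 26.1, 29.0 and 27.2 TPM in the wild type, and ERD2, the receptor that returns ER residents, rose 2.44-fold. RET2, the delta subunit, fell 1.22-fold; this call ended with the replicate number as a block (edgeR adjusted p = 0.0749), with upper-quartile scaling (0.125), with no filter on low counts (0.0532) and without knockout library 3 or any 1 wild-type library (0.103 to 0.191).

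Partners in fusion, tethering and the Golgi rose in 21 cases of 38 and fell in 6, against 34.3% and 30.0% of all tested genes. Of the 10 listed subunits of the TRAPP complexes, which activate Rab GTPases, 8 rose, 1 fell and 1, TRS23, was not called, a grouping made after the values were seen. BET5 and TRS33 rose 3.36-fold and 2.86-fold, and BET3 fell 1.92-fold, with 187, 94.1 and 112 TPM in the knockout and 256, 256 and 278 TPM in the wild type. In exocytosis 10 of 20 partners fell, against 30.0% of all tested genes, and 5 rose, against 34.3%, with a median log2 fold change of -0.28. SNC2, a vesicle SNARE that pairs with Sec9, fell 1.95-fold, with 731 ± 136 TPM in the knockout and 1497 ± 92.1 TPM in the wild type. DSS4, which binds nucleotide-free Sec4, fell 1.91-fold, with 42.1 ± 2.73 TPM in the knockout and 84.4 ± 5.73 TPM in the wild type (SD, n = 3 each). SSO2, a plasma membrane SNARE with a close copy, SSO1, rose 2.26-fold.

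**Figure D4:**
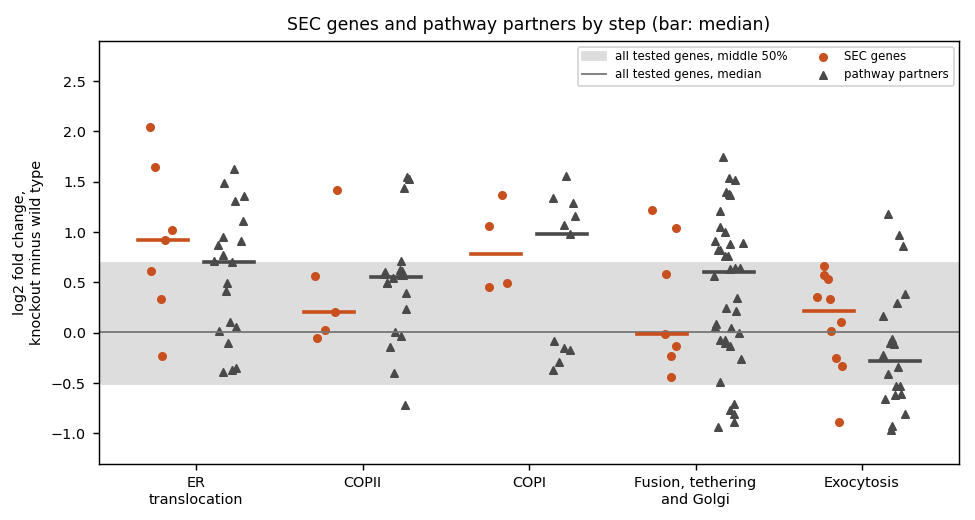
Log2 fold changes, knockout minus wild type, of SEC genes (circles) and pathway partners (triangles) by step, with bars at each median and, in grey, the interquartile range and median of all tested genes. The medians of SEC genes are 0.92 for ER translocation, 0.21 for COPII, 0.78 for COPI, -0.02 for fusion, tethering and Golgi and 0.22 for exocytosis.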

How the data were processed

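Per the labels' protocols, RNeasy-purified RNA was poly(A)-selected and made into stranded libraries. Per the file headers, the deposited values are read counts, whole and not normalized, and TPM, for every gene in each library. The authors also deposited a log2 fold change of knockout over wild type for 2212 genes, per the file headers. The submitters' processing notes name FastQC and build R64; the sources name no aligner or counting program. A further 6 columns, the RPKM of each library, were not used.

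Groups and replicate numbers came from the titles. All genes were fitted together in edgeR 4.0.16 (R 4.3.3; quasi-likelihood, robust, TMM scaling, filterByExpr with a minimum count of 10 and total of 15), with Benjamini-Hochberg adjustment over 6080 genes and a threshold of 0.05; fold changes are 2 to the power of its log2 fold change, and the SE came from the F statistic. Without adjustment 4166 genes had a p under 0.05. A floor of 3 counts is 0.0778 to 0.0892 CPM and covers counting error only; the lowest SEC gene had 416 counts in a library. Replicates differed beyond counting noise (chi-square per degree of freedom of 34.2 to 67.5 between wild-type libraries and 106 to 808 between knockout libraries). The script was tested on simulated data. The alternatives tried were DESeq2 1.42.0; limma 3.58.1 with voom, or on TPM after adding 1 or 0.1 and taking log2; scaling by total count, by upper quartile or by RLE; dropping the filter, or asking for 10 CPM or more in 3 libraries; leaving the 10 most abundant genes out; the replicate number as a block; and each library left out in turn. All SEC genes are named, and of each partner list the largest called rise and fall and the 2 smallest p. The members, steps and lists were chosen with earlier results of these data known.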

Additional observations from a re-analysis of the deposited data

How the results depend on the processing

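Of the 22 called SEC genes, 17 kept direction and call in all 17 alternatives, 16 of them higher and SEC9 lower; SEC31, SEC3, SEC6, SEC20 and SEC8 lost their call in at least 1. The number of SEC genes that rose stayed between 17 and 21. The number that fell was 6 with total-count scaling, 5 with DESeq2 and 5 with limma on log2(TPM + 1) or log2(TPM + 0.1), against 3; leaving out a library gave 1 (without wild-type library 1) to 6 (without knockout library 1). The median log2 fold change of the SEC genes was 0.31 with total-count scaling and 0.39 to 0.50 when a library was left out. Leaving out a library gave 13 to 25 lower partner genes, with 13 without knockout library 3 or wild-type library 1 and 14 without wild-type library 3, and moved the number of all tested genes lower in the knockout to 1090 (without knockout library 3), 1211 (without wild-type library 1) and at most 2261. Signs turned only for uncalled genes. The log2 fold change of SEC5 was -0.0112 with RLE scaling and with DESeq2, -0.13 with total-count scaling, -0.0641 and -0.0675 with limma on log2(TPM + 1) and log2(TPM + 0.1), and -0.14 to 0.12 when a library was left out. The log2 fold change of SEC24 was -0.12 with total-count scaling, -0.0459 and -0.0468 with limma on the 2 TPM scales, and -0.0367 to 0.0755 when a library was left out. The log2 fold change of SEC23 was 0.0238 with upper-quartile scaling and -0.10 to 0.0279 when a library was left out. The log2 fold change of SEC18 was 0.0570 with upper-quartile scaling and -0.0339 to 0.0159 when a library was left out. The log2 fold change of SEC2 was -0.0403 with total-count scaling. The cause was not tested. The replicate block gave 19 higher and 3 lower SEC genes and changed no call of a SEC gene. Same-numbered deviations correlated at 0.318, 0.181 and -0.0673, and those of differently numbered libraries at -0.298 to 0.257. With 3 libraries per group, these values cannot decide whether the titles' numbers pair the libraries.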

Other observations

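Several genes of the pathway exist as close copies left by a genome duplication, and these were looked at after their values were seen. The pairs given are a selection, so they do not show how often copies moved apart. The plasma membrane SNARE genes SSO2 and SSO1 moved apart: SSO2 rose 2.26-fold and SSO1 fell 1.75-fold, with 281 ± 45.6 TPM in the knockout and 517 ± 10.3 TPM in the wild type (SD, n = 3 each). Of the Arf GTPase genes, ARF1 rose, with 308 ± 81.6 TPM in the knockout and 128 ± 10.3 TPM in the wild type, while ARF2 was not called, with 916 ± 123 TPM in the knockout and 1238 ± 48.1 TPM in the wild type (SD, n = 3 each; edgeR adjusted p = 0.0828). Of the Arf exchange factors, GEA2 rose 2.24-fold and GEA1 had a log2 fold change of -0.15 ± 0.12 (SE). The vesicle SNARE genes SNC1 and SNC2 both fell, by 1.53-fold and 1.95-fold, and so did EMP46 and EMP47, by 1.64-fold and 1.32-fold. Where copies are near-identical, the division of reads between them is uncertain, and the difference between copies was not tested.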
